A study of Mus musculus with 6 samples.

Results

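The genes described here encode histone lysine modifying enzymes, taken from the RSEM gene table as every row whose name begins with Kmt, Setd, Kdm, Kat or Hdac and a digit. Kdm3a, Kdm5c, Kdm5d, Kdm6a and names with -ps were left out. This gave 47 of the 54146 rows, made up of 14 methyltransferases (Kmt and Setd names), 15 demethylases (Kdm names), 7 acetyltransferases (Kat names) and 11 deacetylases (Hdac names). Spheroids of the mouse mammary tumor line D2A1 were kept in Matrigel in DMEM with 10% FBS and received either 50 nM recombinant SLURP1 (rSLURP1), a secreted protein of the Ly6/uPAR family, or 50 nM recombinant GST (rGST) as control. The study's methods give harvest on day 5. RNAseq covered 3 libraries per treatment, and all 6 come from 1 cell line without host cells. The labels do not say whether the libraries came from separate cultures, so p-values measure the spread between these libraries only.

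Lysine side chains on histone tails carry methyl and acetyl groups that are added and removed by opposing enzymes. Methylation is read according to the residue, so that H3K4 methylation marks promoters and enhancers, H3K36 methylation marks transcribed gene bodies, and H3K9, H3K27 and H4K20 methylation are linked to repression and chromatin compaction. Acetylation by KAT enzymes loosens nucleosomes and accompanies active transcription, and HDAC enzymes reverse it. Several genes with these names act mainly on other substrates, among them Setd3 (an actin histidine methyltransferase), Setd6 (a methyltransferase of RELA) and Hdac6 (a tubulin deacetylase).

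Of the 47 genes, 45 reached a TPM of 1 in at least 3 libraries and were tested, and all 45 did so in all 6 libraries, so that no gene entered through 1 treatment alone. TPM is a level per transcript length with 1 fixed total for every library. The untested genes were Kdm4d, a testis-enriched H3K9 demethylase, at 0.01 to 0.18 TPM, and Kdm6bos, an opposite-strand transcript of the Kdm6b locus that encodes no enzyme and was listed at 0 in all 6 libraries. Differences were tested with limma on log2(TPM + 1), which understates the change of genes with low TPM, over 12301 genes with Benjamini-Hochberg adjustment at 0.05. TPM keeps no read depth, so counting error is unknown.

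Pearson correlations of log2(TPM + 1) lay at 0.983 to 0.986 within a treatment and at 0.941 to 0.950 across treatments. Of 8 epithelial markers, Krt18 was at 191 to 199 TPM in all libraries, whereas Epcam, Krt5 and Krt14 were listed at 0 and Cdh1 reached at most 0.07 TPM. Of 4 mesenchymal markers, Vim was at 1184 to 1340 TPM with rGST and at 640 to 699 TPM with rSLURP1. Sparc was at 453 to 482 TPM with rGST and at 232 to 239 TPM with rSLURP1. Zeb1 was at 9.87 to 11.5 TPM with rGST and 7.03 to 7.20 TPM with rSLURP1, and Cdh2 reached at most 0.05 TPM. Leukocyte markers summed to 3.58 to 4.08 TPM with rGST and 7.85 to 10.6 TPM with rSLURP1, nearly all of it Cd68, with Ptprc at 0.01 TPM or less. Endothelial markers summed to 0.31 TPM or less and adipocyte markers to 1.74 TPM or less, and the part of any marker in the results was not tested. In bulk RNA, fewer cells of a state and less RNA per cell cannot be told apart.

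Most of these genes had lower TPM with rSLURP1, and Kdm7a and Setd8 rose. With the TPM as deposited, 38 of the 45 tested genes passed the limma threshold as lower and 2 as higher. Over all tested genes, 58.5% were called lower and 8.66% higher, so a majority of lower calls was already the background. The median log2 fold change was -0.53 over the 45 genes and -0.33 over all tested genes. The rSLURP1 libraries lay entirely below the rGST libraries for 38 genes and entirely above them for Kdm7a and Setd8, against 61.7% and 9.75% of all tested genes. Hdac4, Kdm1b, Kdm2b, Setd4 and Setd6 overlapped between treatments and were not called.

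The number of lower calls depended on how the libraries were scaled. Scaling each library by the median ratio of its genes moved the median of all genes from -0.33 to -0.00 on the log2 scale, and 21 of the 45 genes were then lower and 3 higher (25.2% and 26.0% of all tested genes). Quantile normalization left 19 lower and 3 higher (23.6% and 25.3% of all tested genes). Correcting each library for the length and GC content of transcripts left 14 genes lower and 9 higher (21.9% and 27.0% of all tested genes). Called lower as deposited, with median-ratio scaling, with quantile normalization and after the length and GC correction were 12 genes: Kat6a, Kat6b and Kat7 among acetyltransferases, Hdac9 and Hdac10 among deacetylases, Kdm2a, Kdm5a and Kdm5b among demethylases, and Kmt2a, Kmt2c, Kmt2e and Setd2 among methyltransferases. Kdm7a and Setd8 were called higher in these 4 settings. The share of all tested genes called in all 4 settings was not counted. It cannot exceed the 21.9% lower after the length and GC correction or the 8.66% higher as deposited. With replicate numbers as a block the counts stayed at 38 and 2 (56.5% and 8.19% of all tested genes). Every direction below refers to the TPM as deposited unless another scaling is named.

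**Figure D1:**
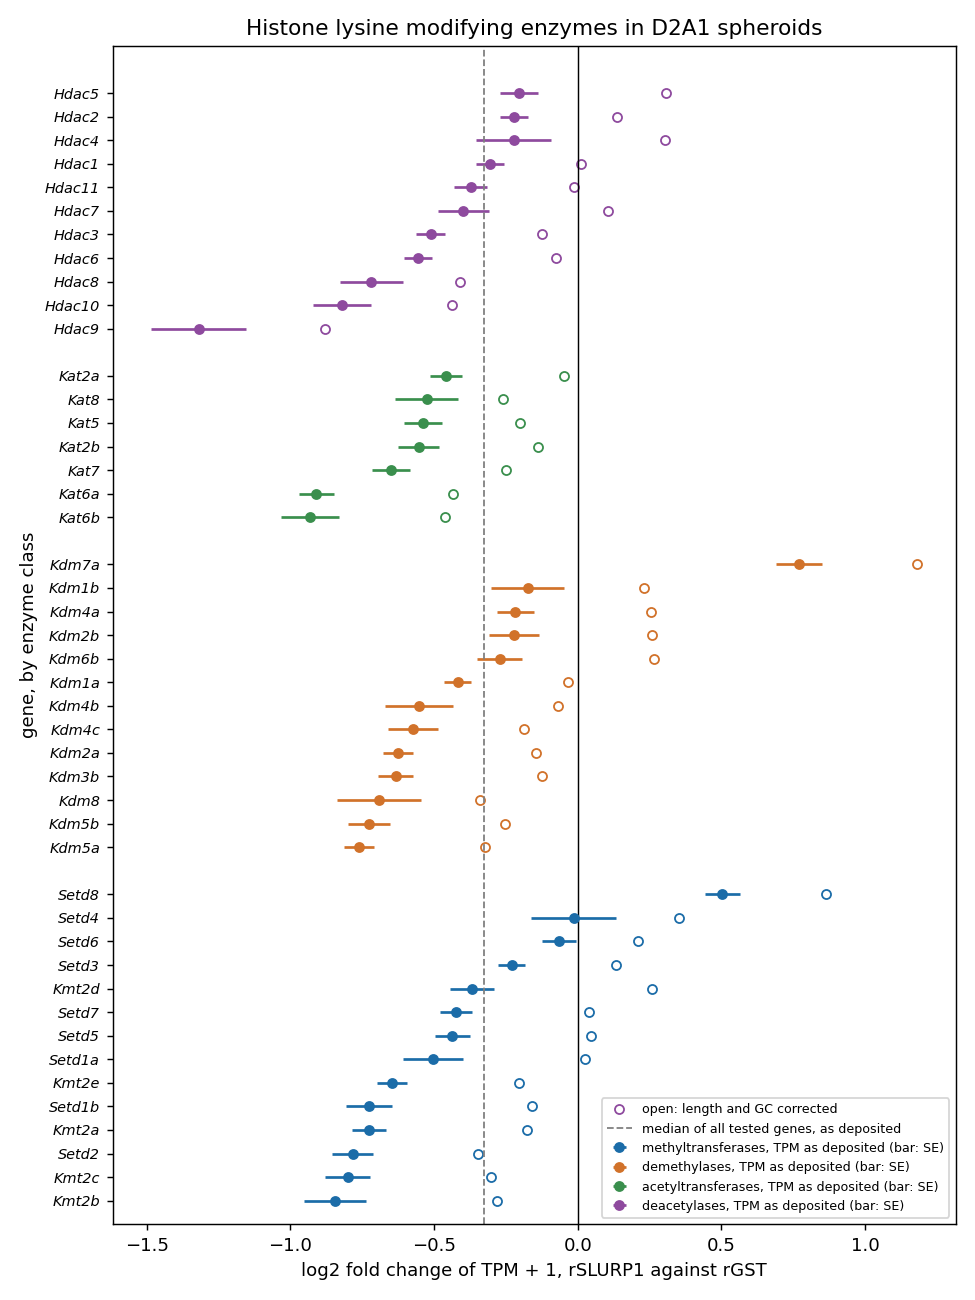
Log2 fold change of TPM + 1 (rSLURP1 against rGST, horizontal axis) for the 45 tested genes by enzyme class, with filled points and bars of 1 standard error for the TPM as deposited and open points after the length and GC correction. Kdm7a and Setd8 lie right of 0 in both, all 7 acetyltransferases lie left of the dashed median of all tested genes (-0.33), and the open points of 9 genes were called higher, among them Hdac5, Kdm4a and Kmt2d, whose filled points were called lower.

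Kdm7a encodes a JmjC demethylase of H3K9 and H3K27 that binds H3K4 trimethylation through a PHD finger. The gene (ENSMUSG00000042599.8) lies on GRCm38 chromosome 6, 39136623 to 39206789, minus strand. Its TPM was 7.43, 7.26 and 6.80 in the rGST libraries and 12.5, 13.9 and 12.4 in the rSLURP1 libraries. Every rSLURP1 library was above every rGST library, and the mean was 80.5% higher. The log2 fold change was 0.77 (limma adjusted p = 1.30e-04, SE, the standard error, 0.0816), higher than 97.7% of all tested genes, and it was 1.09 with median-ratio scaling and 1.18 after the length and GC correction. The related demethylases Phf8 and Phf2, which share the PHD and JmjC arrangement, fell, with log2 fold changes of -0.61 and -0.43 (limma adjusted p = 0.00112 and 7.22e-04), although Phf2 reversed to 0.08 after the length and GC correction and neither was called with median-ratio scaling (limma adjusted p = 0.0622 and 0.256).

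Setd8 (named Kmt5a in current annotation; ENSMUSG00000049327.17) encodes the enzyme that places the first methyl group on H4K20, a mark that rises through G2 and mitosis. It lies on GRCm38 chromosome 5, 124439930 to 124462308, plus strand. Its TPM was 107, 103 and 107 in the rGST libraries and 149, 163 and 139 in the rSLURP1 libraries, which put it at the highest level of the 47 genes in both treatments. The groups did not overlap, and the log2 fold change was 0.50 (limma adjusted p = 2.38e-04, SE 0.0603), 0.85 with median-ratio scaling and 0.86 after the length and GC correction. The enzymes that add the next methyl groups to H4K20 are listed under the older names Suv420h1 and Suv420h2, which the name rule does not take, and they moved the other way. Suv420h1 had 46.6, 47.7 and 43.5 TPM with rGST and 23.4, 25.1 and 24.0 TPM with rSLURP1 (log2 fold change -0.90, limma adjusted p = 1.22e-05, SE 0.0573). Suv420h2 had a log2 fold change of -0.79 (limma adjusted p = 1.23e-04). Both remained lower with median-ratio scaling (-0.55 and -0.45) and after the length and GC correction (-0.46 and -0.42).

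**Figure D2:**
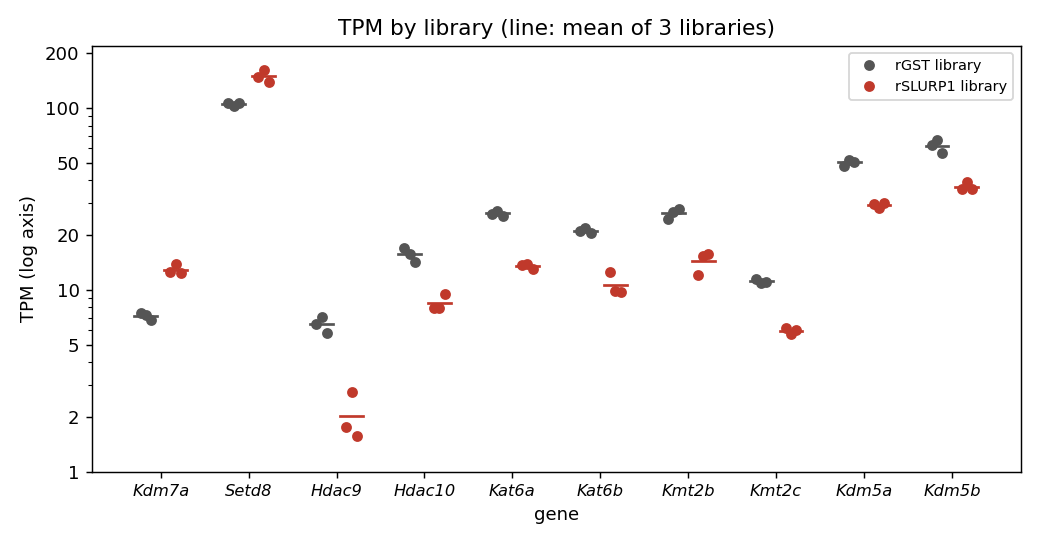
TPM (log axis) in each of the 6 libraries for 10 genes, with grey points for rGST, red points for rSLURP1 and a line at the mean of 3 libraries. The red points of Kdm7a and Setd8 lie above the grey ones, and those of the other 8 genes lie below, with the widest gap for Hdac9.

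The upstream sequence is printed for the 2 genes that rose and for Hdac9 and Kat6b, the 2 with the lowest log2 fold changes of TPM + 1. Each run holds the 250 bases before a RefSeq start on GRCm38.p6, written 5′ to 3′ on the gene's strand. Capitals mark the GC box GGGCGG, the CCAAT box CCAAT and the TATA box TATAAA on either strand. E-box CACGTG, CRE TGACGTCA and AP-1 TGACTCA motifs were also searched and not found in these 4 windows.
Kdm7a (chr6:39206774-39207023, minus strand): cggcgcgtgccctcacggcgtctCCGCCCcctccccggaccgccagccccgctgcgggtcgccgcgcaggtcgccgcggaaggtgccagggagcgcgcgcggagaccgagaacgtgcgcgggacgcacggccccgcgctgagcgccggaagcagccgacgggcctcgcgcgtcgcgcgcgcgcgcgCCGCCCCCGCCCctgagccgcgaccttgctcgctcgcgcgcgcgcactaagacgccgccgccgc
Setd8 (chr5:124439680-124439929, plus strand): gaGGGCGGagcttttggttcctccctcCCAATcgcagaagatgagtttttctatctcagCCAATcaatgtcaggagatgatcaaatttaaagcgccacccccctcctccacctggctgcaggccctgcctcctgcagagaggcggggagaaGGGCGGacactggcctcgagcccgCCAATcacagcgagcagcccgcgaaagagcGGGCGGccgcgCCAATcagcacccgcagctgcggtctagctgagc
Hdac9 (chr12:34917096-34917345, minus strand): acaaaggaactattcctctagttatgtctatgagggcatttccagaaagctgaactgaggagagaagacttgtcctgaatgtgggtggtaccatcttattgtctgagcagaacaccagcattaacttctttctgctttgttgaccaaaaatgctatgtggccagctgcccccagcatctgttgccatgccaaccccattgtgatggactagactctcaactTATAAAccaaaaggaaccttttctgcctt
Kat6b (chr14:21499520-21499769, plus strand): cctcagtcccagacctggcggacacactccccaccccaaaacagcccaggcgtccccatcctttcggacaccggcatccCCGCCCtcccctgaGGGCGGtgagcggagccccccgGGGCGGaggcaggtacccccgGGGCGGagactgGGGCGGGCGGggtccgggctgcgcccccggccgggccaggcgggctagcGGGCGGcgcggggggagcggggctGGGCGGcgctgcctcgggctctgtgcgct
The Kdm7a window had 82.0% GC, with 3 GC boxes and none of the other motifs. The Setd8 window had 62.0% GC, with 3 GC boxes and 4 CCAAT boxes, and it precedes the first of 3 starts that RefSeq gives. The Hdac9 window, before the first of 2 starts, had 44.4% GC with 1 TATA box and neither of the other boxes. The Kat6b window, before the first of 2 starts, had 78.8% GC with 8 GC boxes, of which 2 overlap, and neither of the other boxes. Genes that fell thus included both a GC-rich and a GC-poor window. Whether GC content or these boxes took part in the changes was not tested. Of 32851 windows in the RefSeq table, which were not limited to tested genes, 32.7% held a GC box, 33.8% a CCAAT box and 12.4% a TATA box. Windows were matched for 33 of the tested genes (first start each), of which 19 held a GC box, 15 a CCAAT box and 2 a TATA box. Gene-level TPM do not separate starts, and a match of letters does not show a site in use.

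Every acetyltransferase of the list was lower with rSLURP1 as deposited. All 7 passed the test, against 58.5% of all tested genes called lower, with a median log2 fold change of -0.55. All 7 lay below the median of all genes. With median-ratio scaling 5 were lower (71.4%, against 25.2% of all tested genes) and none higher. After the length and GC correction 4 were lower (57.1%, against 21.9%) and none higher, with a median of -0.25 against 0.03 for all genes. The lowest were Kat6a and Kat6b, the MYST paralogs (MOZ and MORF) that acetylate H3K23 and H3K9 in the BRPF complexes.
Kat6a (ENSMUSG00000031540.13; chromosome 8, 22859535 to 22943259, plus strand) had 26.2, 27.1 and 25.6 TPM with rGST and 13.8, 13.9 and 13.03 TPM with rSLURP1. Kat6b (ENSMUSG00000021767.18; chromosome 14, 21481434 to 21672478, plus strand) had 21, 21.9 and 20.6 TPM with rGST and 12.5, 9.88 and 9.69 TPM with rSLURP1. Neither gene's groups overlapped, and 1 rSLURP1 library of Kat6b lay above the other two. The log2 fold changes were -0.91 for Kat6a (limma adjusted p = 1.45e-05, SE 0.0603) and -0.93 for Kat6b (limma adjusted p = 1.39e-04, SE 0.1003). Without rSLURP1 replicate 1, the value of Kat6b was -1.04.
Kat7 (HBO1), the acetyltransferase of H3K14 at replication origins, fell by 0.65 on the log2 scale (limma adjusted p = 1.13e-04), and Kat5 (TIP60), the catalytic subunit of NuA4, fell by 0.54 (limma adjusted p = 2.68e-04). Kat8 (MOF), the H4K16 acetyltransferase, had 15.8, 16.6 and 14.5 TPM with rGST and 12.4, 9.33 and 10.0 TPM with rSLURP1, without overlap. Its log2 fold change was -0.53 (limma adjusted p = 0.00386), and it was not called with median-ratio scaling (-0.20, adjusted p = 0.203). Of the GNAT enzymes of the SAGA and ATAC complexes, Kat2a (GCN5) had 64.2, 62.9 and 66.2 TPM with rGST and 43.6, 47.3 and 49.2 TPM with rSLURP1. The groups of Kat2a were well apart, and its log2 fold change of -0.46 (limma adjusted p = 2.79e-04) was nearest to 0 within the class. Kat2b (PCAF) fell by 0.55 on the log2 scale. Neither GNAT gene was called after the length and GC correction (-0.05 and -0.14).

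The deacetylases ranged from -1.32 to -0.20 on the log2 scale, with Hdac9 far below the others. Of the 11 genes, 10 were lower (90.9%, against 58.5% of all tested genes) and none higher, with a median of -0.40. With median-ratio scaling 5 were lower (45.5%, against 25.2% of all tested genes) and none higher. After the length and GC correction 3 were lower and 1 (Hdac5) higher (27.3% and 9.09%, against 21.9% and 27.0% of all tested genes). Hdac9, a class IIa deacetylase that works mainly as a corepressor of MEF2, was alone among the 45 in passing both the limma threshold and a 2-fold change, against 7.06% of all tested genes that fell this far and 1.15% that rose this far. With median-ratio scaling Hdac9 and Kdm7a did so, against 3.76% of genes that fell and 2.49% that rose. Hdac9 was below 2-fold after quantile normalization (-0.95) and once length and GC were corrected for (-0.88), where Kdm7a alone passed (1.16 and 1.18), against 3.38% lower and 2.55% higher and 3.34% lower and 2.21% higher over all tested genes.
Hdac9 (ENSMUSG00000004698.10; chromosome 12, 34047580 to 34917095, minus strand) had 6.52, 7.06 and 5.79 TPM with rGST and 1.76, 2.75 and 1.56 TPM with rSLURP1. The highest rSLURP1 library was well below the lowest rGST library, and the mean TPM fell by 68.7%. The log2 fold change was -1.32 (limma adjusted p = 2.95e-04, SE 0.165), -1.05 with median-ratio scaling and -0.88 after the length and GC correction. The other class IIa genes had log2 fold changes nearer to 0. Hdac5 had 85.2, 76.0 and 76.1 TPM with rGST and 64.6, 73.2 and 67.8 TPM with rSLURP1, a narrow gap. It was called lower as deposited (log2 fold change -0.20, limma adjusted p = 0.0265) and higher after the length and GC correction (0.31, limma adjusted p = 0.00292). The lower call was lost without rGST replicate 1 (-0.15), rSLURP1 replicate 1 (-0.16) or rSLURP1 replicate 3 (-0.20). Hdac7 was at -0.40 (limma adjusted p = 0.00568) and reversed to 0.11 after that correction, and Hdac4 was at -0.22 (limma adjusted p = 0.159) with overlapping libraries.

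Class IIb holds Hdac6, the cytoplasmic tubulin deacetylase, and Hdac10, a polyamine deacetylase. Hdac10 had 17.1, 15.8 and 14.3 TPM with rGST and 7.95, 7.97 and 9.54 TPM with rSLURP1. Hdac6 had 63.5, 66.6 and 63.2 TPM with rGST and 41.5, 44.4 and 44.6 TPM with rSLURP1. Both were separated by treatment and fell, by 0.82 and 0.56 on the log2 scale (limma adjusted p = 2.59e-04 and 5.72e-05), and Hdac6 was not called after the length and GC correction (-0.08). Class I includes Hdac1, Hdac2 and Hdac3, catalytic subunits of the nuclear corepressor complexes, and also Hdac8. Hdac2 had 85.8, 80.9 and 82.6 TPM with rGST and 74.6, 68.9 and 70.1 TPM with rSLURP1. Its groups did not overlap and its log2 fold change was -0.22 (limma adjusted p = 0.00460), which reversed under median-ratio (0.13) and quantile (0.06) scaling and after the length and GC correction (0.14), without a call. Hdac1, its partner in the Sin3, NuRD and CoREST complexes, was at -0.30 (limma adjusted p = 0.00106) and at 0.04, -0.02 and 0.01 in the same 3 settings, without a call. Hdac3, the enzyme of the NCoR complexes, and Hdac8 were lower both as deposited (-0.51 and -0.72) and with median-ratio scaling (-0.16 and -0.38), and Hdac3 missed the threshold after the length and GC correction (-0.12, limma adjusted p = 0.0533). Hdac11, the only class IV enzyme, was at -0.37 (limma adjusted p = 9.37e-04) and at -0.04 with median-ratio scaling, where it was not called.

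Of the 14 methyltransferases, 11 were lower and 1 (Setd8) higher (78.6% and 7.14%, against 58.5% and 8.66% of all tested genes). With median-ratio scaling 6 were lower and 2 higher (42.9% and 14.3%, against 25.2% and 26.0% of all tested genes). After the length and GC correction 4 were lower and 4 higher (28.6% each), near the 21.9% and 27.0% of all tested genes. The methyltransferases included 7 enzymes of H3K4, all of which were called lower as deposited, with a median log2 fold change of -0.73. With median-ratio scaling 4 of these 7 were lower (57.1%) and none higher. After the length and GC correction 2 of them were lower (28.6%) and 1 (Kmt2d) higher (14.3%). Kmt2b, an MLL family enzyme of bivalent promoters, had 24.5, 26.7 and 28.0 TPM with rGST and 12.02, 15.3 and 15.7 TPM with rSLURP1. The groups were far apart, and the log2 fold change of -0.84 (limma adjusted p = 3.26e-04, SE 0.107) was the lowest of the class on TPM + 1. With a pseudocount of 0.1, Kmt2c was slightly lower than Kmt2b (-0.89 against -0.88). Kmt2b missed the threshold after the length and GC correction (-0.28, limma adjusted p = 0.0511). Kmt2a (MLL1) fell by 0.73 on the log2 scale (limma adjusted p = 4.10e-05). Setd1a and Setd1b, the SET1 enzymes that place most H3K4 trimethylation, were at -0.50 and -0.73 (limma adjusted p = 0.00374 and 1.71e-04), and neither was called after the length and GC correction (0.03 and -0.16), Setd1a also not with median-ratio scaling (-0.16). Setd7, an H3K4 monomethyltransferase with many other substrates, was at -0.42 (limma adjusted p = 4.04e-04) and reversed to 0.04 after the length and GC correction.

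Kmt2c and Kmt2d place H3K4 monomethylation at enhancers as the catalytic subunits of sister complexes, and their log2 fold changes differed in size. Kmt2c had 11.4, 10.9 and 11.1 TPM with rGST and 6.18, 5.75 and 5.99 TPM with rSLURP1. Kmt2d had 15.8, 17.6 and 16.8 TPM with rGST and 12.1, 12.5 and 13.7 TPM with rSLURP1. Both were separated by treatment, with log2 fold changes of -0.80 for Kmt2c (limma adjusted p = 7.99e-05) and -0.37 for Kmt2d (limma adjusted p = 0.00357). After the length and GC correction Kmt2c was still lower (-0.30) whereas Kmt2d was called higher (0.26, limma adjusted p = 0.0192).

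Among the other methyltransferases, Setd2, the enzyme of H3K36 trimethylation, fell by 0.78 on the log2 scale (limma adjusted p = 6.45e-05), and Kmt2e, an MLL family reader without known catalytic activity, fell by 0.65 (limma adjusted p = 3.63e-05). Both were also lower after the length and GC correction. Setd5 was at -0.44 and Setd3 at -0.23 as deposited, both called lower, and both turned positive after the correction (0.04 and 0.13, the latter called higher), Setd3 also with median-ratio scaling (0.12). Setd4 had 5.73, 4.74 and 4.13 TPM with rGST and 4.68, 4.09 and 5.65 TPM with rSLURP1. These libraries overlapped and Setd4 did not pass the test (log2 fold change -0.01, limma adjusted p = 0.935). Setd6 also overlapped as deposited (-0.06, limma adjusted p = 0.357) and was called higher with median-ratio scaling (0.28, limma adjusted p = 0.00504).

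Kdm5a and Kdm5b, JmjC enzymes that remove H3K4 di- and trimethylation, had the lowest log2 fold changes of TPM + 1 among the demethylases. Of the 13 tested Kdm genes, 10 were lower and 1 (Kdm7a) higher, with a median of -0.55. These were 76.9% and 7.69%, against 58.5% and 8.66% of all tested genes. With median-ratio scaling 5 were lower and 1 higher (38.5% and 7.69%, against 25.2% and 26.0% of all tested genes). After the length and GC correction 3 were lower and 4 higher (23.1% and 30.8%), near the 21.9% and 27.0% of all tested genes. Kdm5a had 48.3, 52.1 and 50.8 TPM with rGST and 29.5, 28.3 and 30.2 TPM with rSLURP1. Kdm5b had 62.9, 66.8 and 56.4 TPM with rGST and 35.7, 39.3 and 36.05 TPM with rSLURP1. Both were well separated and fell, by 0.76 and 0.73 on the log2 scale (limma adjusted p = 1.81e-05 and 9.83e-05), and both remained lower after the length and GC correction (-0.32 and -0.25). Thus H3K4 methyltransferases and KDM5 demethylases were both lower at the RNA level as deposited. After the length and GC correction, 2 of the 7 H3K4 methyltransferases were lower, 1 was higher and 4 were not called. The other H3K4 demethylases are the amine oxidases Kdm1a (LSD1), at -0.42 (limma adjusted p = 1.85e-04; -0.07 and not called with median-ratio scaling), and Kdm1b. Kdm1b had 4.79, 5.17 and 6.61 TPM with rGST and 4.92, 4.89 and 4.43 TPM with rSLURP1, and the overlap left it uncalled (log2 fold change -0.17, limma adjusted p = 0.254).

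Kdm2a and Kdm2b demethylate H3K36 and bind unmethylated CpG islands through a CXXC domain, and Kdm2b recruits a variant PRC1 complex. Kdm2a had 64.8, 61.2 and 61.8 TPM with rGST and 39.0, 42.2 and 39.6 TPM with rSLURP1. Kdm2b had 22.3, 24.2 and 19.8 TPM with rGST and 19.99, 18.03 and 18.3 TPM with rSLURP1. Only Kdm2a was separated by treatment and fell (log2 fold change -0.63, limma adjusted p = 3.73e-05). Kdm2b was at -0.22 (limma adjusted p = 0.0518), which turned positive with median-ratio scaling (0.12) and was called higher after the length and GC correction (0.26, limma adjusted p = 0.0474). Without rGST replicate 3 or rSLURP1 replicate 1, Kdm2b passed the threshold as lower (-0.30 and -0.27).

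The KDM4 enzymes remove H3K9 and H3K36 methylation. Kdm4a had 30.9, 33.6 and 34.2 TPM with rGST and 26.7, 28.5 and 29.3 TPM with rSLURP1. Kdm4c had 11.8, 11.9 and 11.3 TPM with rGST and 8.31, 7.0 and 7.24 TPM with rSLURP1. The gap was narrow for Kdm4a (log2 fold change -0.22, limma adjusted p = 0.0174) and wide for Kdm4c (-0.57, limma adjusted p = 7.65e-04), and Kdm4a reversed to 0.13 with median-ratio scaling and was called higher after the length and GC correction (0.26, limma adjusted p = 0.00962). The lower call of Kdm4a was lost without rGST replicate 2 (-0.20), rGST replicate 3 (-0.19) or rSLURP1 replicate 1 (-0.18). The call of Kdm4c was lost with median-ratio scaling (-0.25, limma adjusted p = 0.0520), quantile normalization (-0.17) and also after the length and GC correction (-0.19). Kdm4b was at -0.55 (limma adjusted p = 0.00431), with rGST libraries that ranged from 32.8 to 47.0 TPM, and its call was lost in the same 3 settings (-0.21, -0.19 and -0.07). Kdm3b, an H3K9 demethylase, fell by 0.63 on the log2 scale (limma adjusted p = 8.77e-05) and was not called after the length and GC correction (-0.12).
Kdm6b (JMJD3), which removes H3K27 trimethylation, was called lower as deposited (-0.27, limma adjusted p = 0.0167) and higher after the length and GC correction (0.27, limma adjusted p = 0.0148), with 0.07 under median-ratio scaling. Its locus overlaps Kdm6bos on the other strand, and strand use in the counting is not given in the sources used here. Kdm8, a JmjC protein with hydroxylase activity, had the lowest level of the tested genes. It was at 2.57, 3.26 and 3.00 TPM with rGST and 1.16, 1.45 and 1.73 TPM with rSLURP1. Its log2 fold change was -0.69 (limma adjusted p = 0.00396) and missed the threshold after the length and GC correction (-0.34). The mean TPM of Kdm8 fell by 50.9%, further than that of Kdm5a (41.8%) and Kdm5b (40.3%), as log2(TPM + 1) understates changes at low TPM.

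Ratios between related enzymes within a library depend little on how libraries are scaled to each other, so the log2 ratio of TPM + 1 was compared for 13 pairs. The ratios of 4 pairs did not overlap between treatments. How often the ratios of other gene pairs separate in these libraries was not counted. Single genes often did, with 61.7% of all tested genes entirely below rGST and 9.75% entirely above. With 3 libraries against 3, an exact permutation test cannot go below a two-sided p of 0.1, which these 4 pairs reached, and adjusted over the 13 pairs the exact permutation p was 0.325. The log2 ratio of Kmt2c to Kmt2d was -0.43, -0.64 and -0.56 with rGST and -0.87, -0.998 and -1.07 with rSLURP1, a difference of -0.43 (SE 0.0835). That of Kdm2a to Kdm2b went from a mean of 1.46 to 1.06 (difference -0.40, SE 0.113). The ratios of Kdm4a to Kdm4c and of Hdac6 to Hdac10 were higher with rSLURP1, by 0.36 (SE 0.119) and 0.26 (SE 0.0948). These 4 differences kept their sign after the length and GC correction (-0.56, -0.40, 0.44 and 0.36).
Ratios of the other 9 pairs overlapped between treatments. The log2 ratio of Kat6a to Kat6b differed by 0.02 (SE 0.0996, exact permutation p = 1), that of Kdm5a to Kdm5b by -0.03 (SE 0.0988, exact permutation p = 0.9) and that of Hdac1 to Hdac2 by -0.08 (SE 0.0719, exact permutation p = 0.5). A test that misses the threshold does not show that the partners moved alike.

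**Figure D3:**
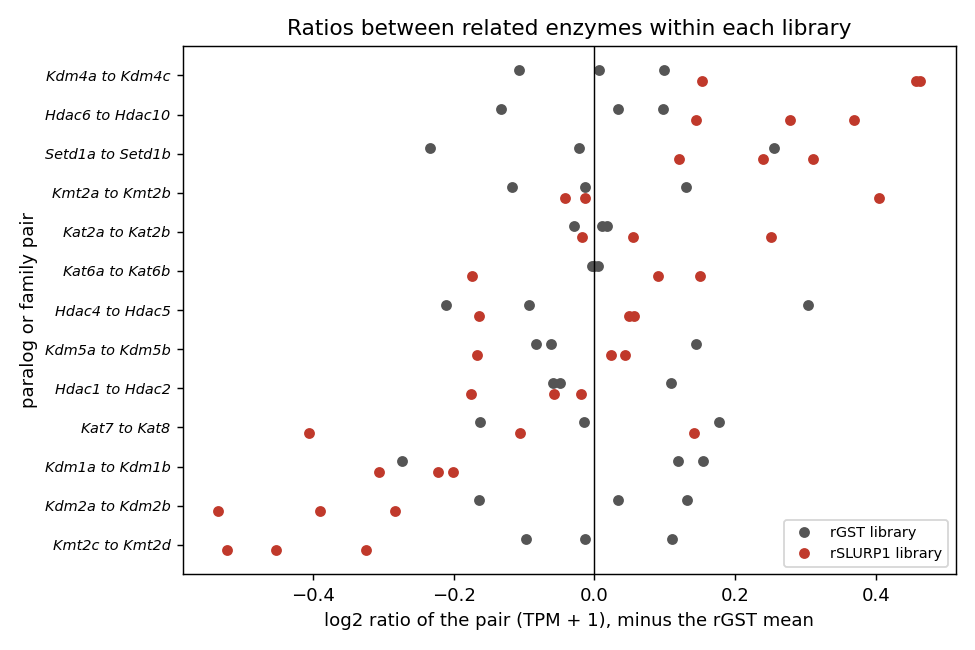
Log2 ratio of TPM + 1 within each library for 13 pairs of related enzymes, as the difference from the rGST mean, with grey points for rGST and red points for rSLURP1 libraries. Red and grey points do not overlap for Kmt2c to Kmt2d and Kdm2a to Kdm2b (differences of -0.43 and -0.40) or for Kdm4a to Kdm4c and Hdac6 to Hdac10 (0.36 and 0.26). How often ratios of other gene pairs separate was not counted.

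Summed over a class, TPM shows how much of the message pool each class held. The 7 acetyltransferases summed to 240 ± 3.89 TPM (SD, n = 3) with rGST and 155 ± 3.78 TPM (SD, n = 3) under rSLURP1, and this sum decreased by 35.4%. The demethylases went from 429 ± 18.6 to 304 ± 8.60 TPM (SD, n = 3 each) and the deacetylases from 544 ± 15.2 to 415 ± 13.97 TPM (SD, n = 3 each), which were decreases by 29.2% and 23.8%. The methyltransferases went from 566 ± 6.76 to 480 ± 14.3 TPM (SD, n = 3 each), and without Setd8 from 461 ± 8.48 to 329 ± 7.07 TPM (SD, n = 3 each). Most genes fell as deposited, with a median log2 fold change of -0.33 over all tested genes and 61.7% of them entirely below rGST. Whether a class sum fell further than that of other genes was not tested. Setd8 alone held 18.6% ± 0.600 of the methyltransferase TPM in rGST libraries and 31.3% ± 1.74 in rSLURP1 libraries (SD, n = 3 each).
Within a library, the ratio of deacetylase to acetyltransferase TPM was 2.31, 2.33 and 2.16 with rGST and 2.59, 2.67 and 2.75 with rSLURP1. Hdac1, Hdac2, Hdac5 and Hdac7 weighed most in the deacetylase sum. Their means were 78.6 to 83.75 TPM with rGST and fell by 13.4% to 24.2%. The ratio of methyltransferase to demethylase TPM was 1.33, 1.27 and 1.36 with rGST and 1.57, 1.58 and 1.58 with rSLURP1. Neither ratio overlapped between treatments. The second rested on Setd8, since without Setd8 it was 1.08, 1.04 and 1.10 with rGST and 1.07, 1.06 and 1.12 with rSLURP1, which overlapped. These ratios are given for the TPM as deposited only. They are descriptions over genes chosen by name and carry no test.

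**Figure D4:**
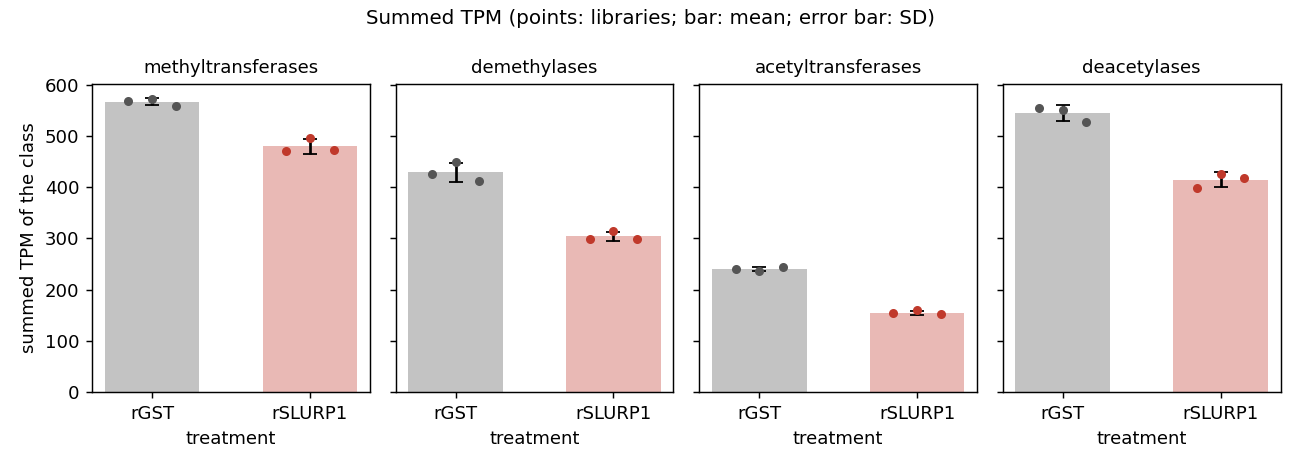
Summed TPM of each enzyme class by treatment, with points for the 3 libraries, bars for the mean (axis from 0) and error bars for the SD. Each class summed lower in all rSLURP1 libraries than in all rGST libraries, from 240 to 155 TPM for the acetyltransferases and from 566 to 480 TPM for the methyltransferases. The rSLURP1 libraries also lay entirely below the rGST libraries for 61.7% of all tested genes.

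Many of these genes have long transcripts, although 12 of the 45 were no longer than the median tested gene. Their longest annotated transcripts had a median of 5179 bases against 3152 bases over all tested genes, and the other 33 were longer than that overall median. The methyltransferases were the longest class (median 7364 bases, up to 19823 bases for Kmt2d), followed by demethylases (5180), deacetylases (3585) and acetyltransferases (3560). The log2 fold change had a Spearman correlation with length of -0.25 over 12293 tested genes with a length and of -0.37 over the 45. Genes within these libraries are not independent replicates.
Among tested genes of 6000 bases or more, 72.9% were called lower with a median log2 fold change of -0.43, and the 20 histone enzymes of that length had a median of -0.69 with 18 lower and 1 higher. From 3000 to under 6000 bases, 67.2% of tested genes were lower with a median of -0.38. The 15 histone enzymes in that range had a median of -0.42, near that of all genes, with 13 lower and none higher. Among genes of under 3000 bases, 47.1% were lower with a median of -0.23. The 10 histone enzymes of under 3000 bases had a median of -0.45 with 7 lower and 1 higher. Kdm7a, with 9566 bases, rose among the long transcripts, and Setd8, with 2739 bases, among the short ones. Whether length took part in the lower TPM of a given gene was not tested.

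**Figure D5:**
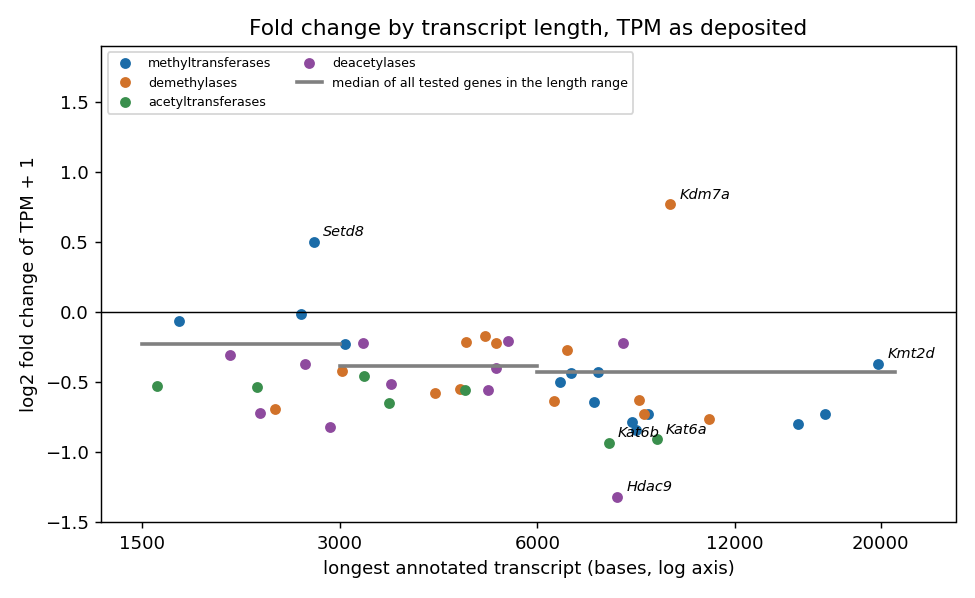
Log2 fold change of TPM + 1 as deposited against the length of the longest annotated transcript (bases, log axis) for the 45 tested genes, coloured by class, with grey lines at the median of all tested genes in 3 length ranges (-0.23, -0.38 and -0.43). Kdm7a stands alone above 0 among the genes of 6000 bases or more, and Hdac9, Kat6a and Kat6b lie lowest.

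Chromatin genes outside the name rule were taken from lists of related enzymes and cofactors. Of 20 other lysine methyltransferases tested, 17 were lower and none higher, with a median log2 fold change of -0.48, and with median-ratio scaling 7 were lower and 1 higher and after the length and GC correction 5 and 3. Over all tested genes, the shares in these 3 settings were 58.5%, 25.2% and 21.9% lower and 8.66%, 26.0% and 27.0% higher. The same shares are the background for every other list below. Ezh1, the PRC2 methyltransferase of resting cells, had 40.4, 40.6 and 39.1 TPM with rGST and 17.9, 18.2 and 18.0 TPM with rSLURP1, a log2 fold change of -1.11 (limma adjusted p = 2.87e-06, SE 0.0503). Its libraries were tightly grouped and far apart. Its paralog Ezh2 had a log2 fold change of -0.31 (limma adjusted p = 0.0184) and reversed to 0.04 with median-ratio scaling, without a call. Of 19 COMPASS and PRC2 cofactors, 14 were lower and none higher (median -0.36, near the -0.33 of all tested genes), with median-ratio scaling 5 were lower and 3 higher, and after the length and GC correction 3 were lower and 2 higher. The lowest value was that of Phf1, a PRC2 accessory protein, at -1.24 (limma adjusted p = 1.98e-05).

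All 14 other acetyltransferases tested were lower as deposited, against 58.5% of all tested genes, with a median of -0.52. With median-ratio scaling 7 were lower and none higher, against 25.2% and 26.0% of all tested genes. After the length and GC correction 5 were lower and 2 higher, against 21.9% and 27.0%. Ep300, a main acetyltransferase of H3K27, fell by 0.76 on the log2 scale (limma adjusted p = 8.58e-05), whereas its paralog Crebbp was at -0.28 (limma adjusted p = 0.0198) and was called higher after the length and GC correction (0.26, limma adjusted p = 0.0328). Of 36 cofactors of the SAGA, NuA4 and MYST complexes, 31 were lower and 1 (Kansl2, a subunit of the NSL complex of Kat8) higher, with a median of -0.46, against 15 lower and 4 higher with median-ratio scaling and 13 lower and 4 higher after the length and GC correction. Of 15 bromodomain proteins, which include readers of acetylated lysine, 14 were lower and none higher (median -0.54), with median-ratio scaling 9 were lower and 1 higher, and after the length and GC correction 6 were lower and 1 higher (median -0.05).
The 36 corepressor subunits that work with deacetylases had 29 lower and none higher, with a median of -0.33, the same as over all tested genes, and with median-ratio scaling 6 were lower and 5 higher, and after the length and GC correction 5 and 7. Of 7 sirtuins, the NAD-dependent deacetylases, 5 were lower and none higher (median -0.38), or 3 lower without rGST replicate 1, rGST replicate 2 or rSLURP1 replicate 1, and with median-ratio scaling none passed the threshold, whereas 1 was higher after the length and GC correction. Of 8 other JmjC genes, 6 were lower and 1 higher (median -0.40), with median-ratio scaling 1 was lower and 1 higher, and after the length and GC correction 1 was lower and 2 higher with a positive median (0.09). As deposited the higher one was Hr, an H3K9 demethylase (0.43, limma adjusted p = 0.0305). All 8 arginine methyltransferases tested were lower as deposited (median -0.38), against 58.5% of all tested genes. Of these, 1 was lower both with median-ratio scaling and after the length and GC correction.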

How the data were processed

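RNAseq of D2A1 spheroids was analysed in 6 libraries, 3 per treatment, grouped by their labels. The deposited TPM, 1 unpooled column per library, are RSEM gene estimates on GENCODE M12 that the authors made after adapter trimming (Cutadapt) and STAR 2.5.2b alignment (mm10). RSEM is version 1.3.3 and Cutadapt version 1.18 in the submitters' processing notes, and the paper's methods give other versions. The library kit is TruSeq mRNA by the labels but Smart-seq2 by the methods, which was not resolved here. Depth is unknown.

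Genes that reached 1 TPM in 3 or more libraries (12301) were tested on log2(TPM + 1) with limma (3.58.1, R 4.3.3; eBayes with trend, no block), adjusted over all tested genes. The study's own test is a count model, for which TPM are not suited. The thresholds were an adjusted p of 0.05 and, for large changes, a fold of 2. Coordinates, lengths and GC content came from GENCODE M21 on the same build, where 54079 of 54146 identifiers matched without their version and 52480 with it. The length and GC correction was a loess fit (span 0.3) of each library's deviations, and it left out 8 tested genes without a match. Promoters came from RefSeq (GRCm38.p6). Pair ratios were tested with an exact permutation test in scipy 1.17.1. The fit was tested on simulated data.

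The members and gene lists were chosen with earlier results of these data known. Library values were given for genes changed at least 2-fold, for the 2 highest and 2 lowest genes of each class, and for pairs whose ratios did not overlap. Kdm8, Ezh1, Suv420h1 and other genes outside that rule were named after their values were seen. The pair Kmt5b to Kmt5c was not compared because the table lists these genes under other names.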

Additional observations from a re-analysis of the deposited data

How the results depend on the processing

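The 38 lower and 2 higher calls became 21 and 3 with median-ratio scaling, 19 and 3 after quantile normalization, 14 and 9 once length and GC were corrected for, and 12 and 9 if the replicate block was also fitted. In the same order, the median over all members was -0.20, -0.15, -0.077 and -0.077. The shares of all tested genes called in these settings without the block are given above. For the correction with the block added, that share was not counted, so those counts have no background beside them. Methyltransferases had 6 lower and 2 higher with median-ratio scaling (median -0.12), 6 and 2 after quantile normalization (-0.13), 4 and 4 for the length and GC correction (0.032, reversed) and 4 and 3 when the block was added (0.032). Demethylases had 5 lower (median -0.21), 5 (-0.17), 3 lower and 4 higher (-0.070), and 2 lower and 3 higher (-0.070). Acetyltransferases had a median of -0.21, then 4 lower (-0.16), 4 (-0.25) and 3 (-0.25). Deacetylases had 5 lower (-0.048), 4 (-0.11), 3 lower and 1 higher (-0.013), and 3 lower and 3 higher (-0.013). With median-ratio scaling 2 members changed at least 2-fold, Hdac9 and Kdm7a. The ratio of Kmt2c to Kmt2d differed by -0.56 after the correction. The cause of these shifts was not tested.

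With each of the 6 libraries left out in turn, from 36 to 38 members were lower and 2 higher, 1 or 2 changed at least 2-fold (2 without rSLURP1 replicate 1, Kat6b added), and medians ranged from -0.54 to -0.48 over all members, from -0.60 to -0.42 for demethylases, from -0.47 to -0.35 for deacetylases, from -0.62 to -0.51 for acetyltransferases and from -0.55 to -0.41 for methyltransferases. With the replicate number as a block, 38 members were lower and 2 higher, as without it, although Hdac4 was gained (adjusted p = 0.0479 in limma) and Hdac5 lost (0.0584). Deviations of same-numbered libraries correlated at -0.056, -0.034 and -0.061, so no shared deviation by number was seen. Whether same-numbered libraries were prepared together is not known from the labels.

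Of the named genes, Hdac2, Hdac5, Kdm1b, Kdm2b, Kdm4a and Setd4 turned positive with median-ratio scaling (0.13, 0.15, 0.12, 0.12, 0.13 and 0.28), quantile normalization (0.062, 0.081, 0.22, 0.17, 0.15 and 0.38) and, whether or not blocked, the length and GC correction (0.14, 0.31, 0.23, 0.26, 0.26 and 0.35). Kmt2d did so with the last 2 (0.026 and 0.26). Setd4 ranged from -0.12 to 0.089 with single libraries left out and was 0.0078 without mitochondrial genes. Dropping the filter or asking for it in every library, a pseudocount of 0.1 and eBayes without trend reversed none of the named genes.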
